A study of Homo sapiens with 6 samples.

Results

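The 10 genes described here encode the machinery that removes the cap of messenger RNA and the proteins that gather with it in P-bodies. They were taken by gene symbol from 11679 genes in the authors' deposited tables: DCP2, DCP1A, DCP1B, EDC3, EDC4, PATL1, DDX6, LSM14A, LSM14B and XRN1. All 10 are listed, each with a mean of at least 116 normalized counts. The set was selected on the fold changes of both comparisons, DCP2 and LSM14B being among the larger ones, together with their known partners. Their values are therefore given as a description, and the authors' adjusted p-values serve only to say which genes were called at 0.05.

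Polyadenylated RNA came from 786-O cells, an established human clear cell renal cell carcinoma line that lacks working VHL. ALYREF siRNA5 and ALYREF siRNA8 lowered ALYREF, an adaptor that hands messenger RNA to the nuclear export machinery, and a non-targeting siRNA (NTC) was the control. Each of the 3 groups had 2 libraries, made 48 h after transfection of the same line with the same reagent. Nothing in the labels says that the duplicates came from separate cultures, so the authors' p-values reflect the spread of libraries that may be technical repeats.

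Most messenger RNAs first lose their poly(A) tail, after which the LSM ring and PATL1 bind the shortened end and bring in the decapping enzyme. DCP2 cuts the cap, DCP1A or DCP1B activates it, EDC3 and EDC4 enhance it, and XRN1 then degrades the body of the transcript from the 5′ end. Much of this machinery collects in P-bodies, cytoplasmic granules of repressed RNA whose assembly needs the helicase DDX6 and its partner LSM14A.

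The tables hold 1 mean per gene over all libraries and 1 fold change per siRNA, with no values per library. Fold changes are given as log2 values with their standard errors (± SE). Group levels were rebuilt from these numbers, on the assumption of 6 equally weighted libraries and fold changes that were not shrunk, and they carry no error of their own. ALYREF had a rebuilt level of 437 normalized counts with siRNA5 and 604 with siRNA8, against 7711 with NTC. Of the 10 genes fixed as marks of the line, 9 are listed, with means of 69.0 to 53093, and CA9 is not. Of the leukocyte marks only CD68 is listed, with a mean of 202, and no endothelial mark is. How deeply each library was sequenced is not given in the sources read here. In RNA of a whole culture, a change in some cells and a smaller change in all cells cannot be told apart.

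DCP2, the catalytic subunit of the decapping complex, rose with both siRNAs and had the highest fold change of the 10 genes in each. Its rebuilt level was 1690 normalized counts with siRNA5 and 1084 with siRNA8, against 562 with NTC, so that both knockdowns stood above the control. In the authors' deposited tables DCP2 was 3.01-fold higher than NTC with siRNA5 (log2 1.59 ± 0.084) and 1.93-fold higher with siRNA8 (log2 0.95 ± 0.086). The 95% intervals of the fold, from the deposited standard errors, were 2.68 to 3.37 with siRNA5 and 1.72 to 2.17 with siRNA8. By fold change DCP2 ranked 31st from the top among all genes with siRNA5 and 233rd with siRNA8.

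No rise was called for the activators of DCP2. DCP1A, which joins DCP2 in the active complex, had rebuilt levels of 388 with siRNA5 and 514 with siRNA8, against 479 with NTC. In the authors' deposited tables DCP1A fell by 0.30 ± 0.096 (log2, ± SE) with siRNA5, and its log2 change with siRNA8 was 0.10 ± 0.092, which was not called. DCP1B, its paralogue, gave the fewest counts of the 10 genes and had rebuilt levels of 118 with siRNA5 and 131 with siRNA8, against 100.1 with NTC. The log2 changes of DCP1B, 0.24 ± 0.21 and 0.38 ± 0.20 by the authors' deposited tables, were not called, and their 95% intervals reach from -0.17 to 0.64 and from -0.01 to 0.78. Per kilobase of 1 annotated transcript, the level of DCP2 was 2.92 times that of DCP1A with siRNA5 and 1.41 times with siRNA8, against 0.787 times with NTC. The order of DCP2 and DCP1A per kilobase was thus reversed relative to the control in both knockdowns. This comparison of levels rests on the transcript lengths chosen, 8947 nt for DCP2 and 5994 nt for DCP1A. DCP1B was already below DCP2 with NTC, at 48.0 against 62.9 normalized counts per kilobase.

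Neither enhancer of decapping was called with either siRNA. EDC3, a scaffold that binds the decapping enzyme and DDX6, had rebuilt levels of 627 with siRNA5 and 777 with siRNA8, against 709.6 with NTC. Its log2 changes were -0.18 ± 0.084 and 0.13 ± 0.081 by the authors' deposited tables. EDC3 shares 701 exon bases with CLK3 on the opposite strand, and no source read here states whether the counting used strand. EDC4, the large scaffold that holds DCP1A and DCP2 together, had rebuilt levels of 1866 with siRNA5 and 1601 with siRNA8, against 1714 with NTC. Its log2 changes were 0.12 ± 0.060 and -0.10 ± 0.061 by the authors' deposited tables. EDC4 shares 1311 exon bases with the long non-coding gene AC040162.3 on the same strand, which is not listed in the tables, so reads there may have been counted as ambiguous. DCP1A, EDC3 and EDC4 are the 3 genes of the 10 whose log2 change had opposite signs with the siRNAs.

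PATL1, which bridges deadenylation and decapping, and XRN1, the exonuclease that acts after decapping, rose with both siRNAs. PATL1 had rebuilt levels of 1391 with siRNA5 and 1295 with siRNA8, against 1058 with NTC, and its log2 changes were 0.39 ± 0.068 and 0.29 ± 0.068 by the authors' deposited tables. XRN1 had rebuilt levels of 741 with siRNA5 and 663 with siRNA8, against 445 with NTC. In the authors' deposited tables XRN1 was 1.66-fold higher with siRNA5 (95% interval 1.46 to 1.90) and 1.49-fold higher with siRNA8 (1.31 to 1.70). DCP2, PATL1 and XRN1 were therefore above the control in both knockdowns, and all 3 had their larger log2 change with siRNA5.

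DDX6, the helicase that represses translation and nucleates P-bodies, had rebuilt levels of 1464 with siRNA5 and 1675 with siRNA8, against 1753 with NTC. It fell by 0.26 ± 0.069 (log2) with siRNA5, and its log2 change of -0.07 ± 0.068 with siRNA8 was not called by the authors' deposited tables. The annotation holds the processed pseudogenes DDX6P1 and DDX6P2, so some reads of DDX6 may have been shared or dropped in the counting.

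**Figure D1:**
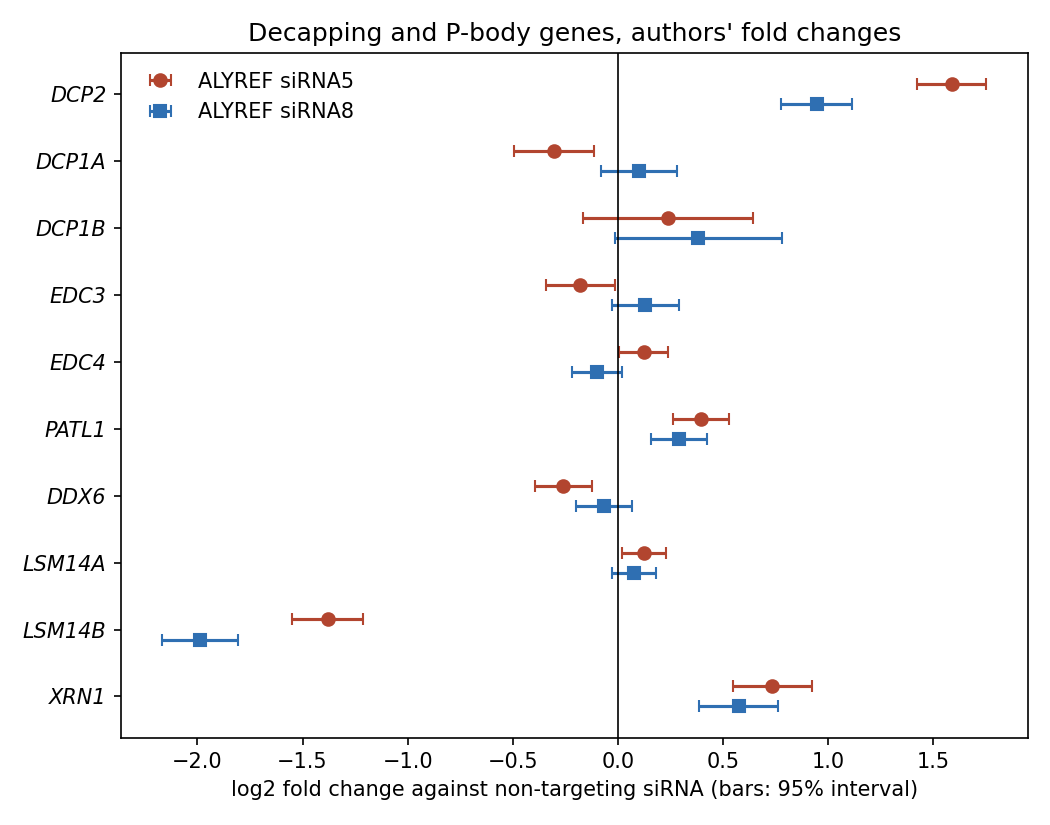
Log2 fold change of each of the 10 genes against NTC, with siRNA5 as circles and siRNA8 as squares, and 95% intervals from the deposited standard errors. DCP2 lies at 1.59 and 0.95 and LSM14B at -1.38 and -1.99, while 7 of the 10 genes lie within 0.5 of zero with each siRNA.

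**Figure D2:**
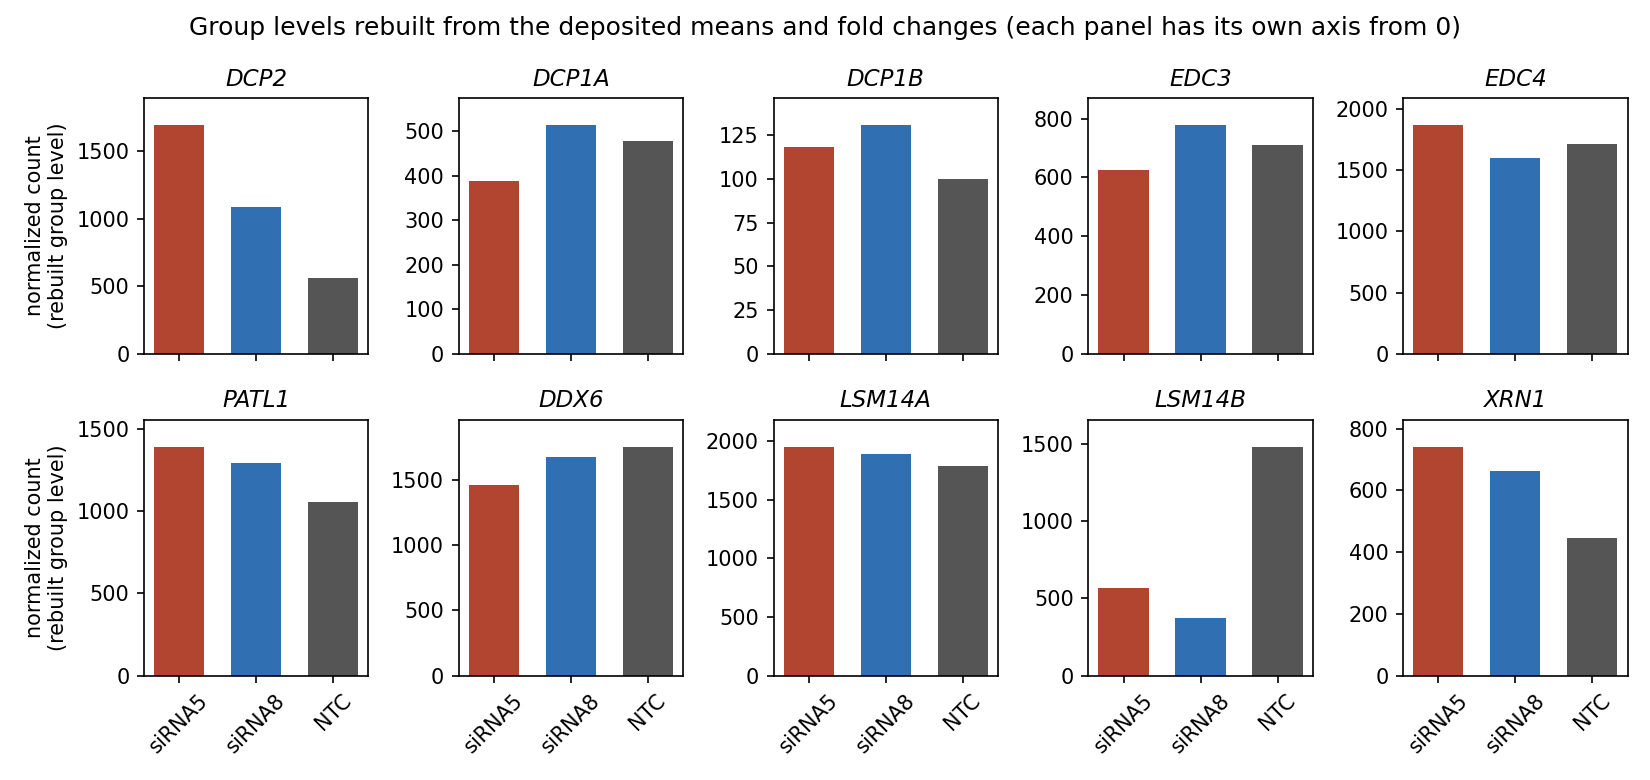
Rebuilt level in normalized counts of each gene with siRNA5, siRNA8 and NTC, as bars from zero with a separate axis in each panel and no error. LSM14B stands at 568 and 373 in the knockdowns against 1480 in the control, while LSM14A stands between 1788 and 1947 in all 3 groups.

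The LSM14 paralogues, which bind DDX6 and the translational repressor 4E-T in P-bodies, differed from each other. LSM14B had rebuilt levels of 568 with siRNA5 and 373 with siRNA8, against 1480 with NTC. In the authors' deposited tables LSM14B fell with siRNA5 to 38.4% of its NTC level (34.2 to 43.1, 95% interval) and with siRNA8 to 25.2% (22.3 to 28.6). These are log2 changes of -1.38 ± 0.086 and -1.99 ± 0.092 by the authors' deposited tables, the 166th lowest of all genes with siRNA5 and the 27th lowest with siRNA8. LSM14A had rebuilt levels of 1947 with siRNA5 and 1889 with siRNA8, against 1788 with NTC. Its log2 changes were 0.12 ± 0.054 and 0.08 ± 0.053 by the authors' deposited tables. The LSM14A change was called with siRNA5 alone, and that call is lost when the median of all genes is subtracted. Per kilobase of transcript, LSM14B made up 29.2% of the summed level of both paralogues with siRNA5 and 21.8% with siRNA8, against 53.9% with NTC.

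The 3′ UTR of LSM14B holds short words whose holders were lower with each siRNA, and these sites are shown as a description. As background, an siRNA can lower other messenger RNAs when the seed at the start of its guide strand pairs with their 3′ UTR. No source read here gives the siRNA sequences, so all heptamers in the 3′ UTRs of 9064 genes with a mean of at least 100 were ranked by the log2 change of the genes that hold them. The lowest with siRNA5 was AACGCTG, held by 267 genes with a median log2 change of -0.17, against 0.03 for the others, and second came ACGCTGA. The lowest with siRNA8 was ACTAGAA, held by 1026 genes with a median of -0.10, against 0.03 for the others, and second came CTAGAAA. These heptamers were picked for those values, so the medians are descriptions. The heptamers of each siRNA overlap by all but their end bases, and the coding sequence of ALYREF holds both pairs. The sites are given 5′ to 3′ from GENCODE 29 transcripts (GRCh38), 27 bases each, with the leading heptamer in capitals.
ALYREF coding sequence, siRNA5 heptamer: ctttgctgaatttggAACGCTGaagaa
LSM14B 3′ UTR, siRNA5 heptamer: tcaggacgcgaggaaAACGCTGcactt
ALYREF coding sequence, siRNA8 heptamer: aacagaggtggcatgACTAGAAaccgt
LSM14B 3′ UTR, siRNA8 heptamer: gccaggggtgggtggACTAGAAgcatt
DCP2 3′ UTR, siRNA8 heptamer: tacttccaaagacccACTAGAAtgtca

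The LSM14B heptamers start at base 68 and base 633 of its 3′ UTR of 1230 nt, on chromosome 20. Around the siRNA8 heptamer, LSM14B equals ALYREF at 18 of 27 positions, while the DCP2 site shown equals it at 10. The 7 bases of the heptamer are among these in every site by the way sites were chosen. Sites of CTAGAAA in LSM14A, EDC4, DDX6 and DCP2 equal ALYREF at 13, 12, 11 and 10 positions. Around the siRNA5 heptamer, LSM14B equals ALYREF at 10 of 27 positions. LSM14B is the only one of the 10 genes with the leading heptamer of both siRNAs in its 3′ UTR, and 62 of the searched genes hold both. These 62 had a median log2 change of -0.01 with siRNA5 and -0.11 with siRNA8, and LSM14B was the lowest of them in each comparison. Of 6953 searched genes with none of the 4 heptamers, 40 were as low as LSM14B or lower with siRNA5 and 3 with siRNA8. Among all holders of each siRNA's leading heptamer, it was 5th lowest of 267 with siRNA5 and 2nd lowest of 1026 with siRNA8. LSM14B was selected on its fold changes and was in the search that ranked the heptamers, so its places among holders are descriptions. The part of these sites in the fall of LSM14B was not tested.

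DCP2 holds ACTAGAA at base 7223 and CTAGAAA at base 4288 of its 3′ UTR, and ACTAGAA once more in its coding sequence. It was higher than NTC with siRNA8, at place 1017 from the lowest among the 1026 holders of ACTAGAA. The 3′ UTRs of LSM14A and DDX6 hold CTAGAAA, and their log2 changes with siRNA8 were 0.08 and -0.07 by the authors' deposited table. The other 6 genes, PATL1 and XRN1 among them, hold none of the 4 heptamers in their 3′ UTRs.

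**Figure D3:**
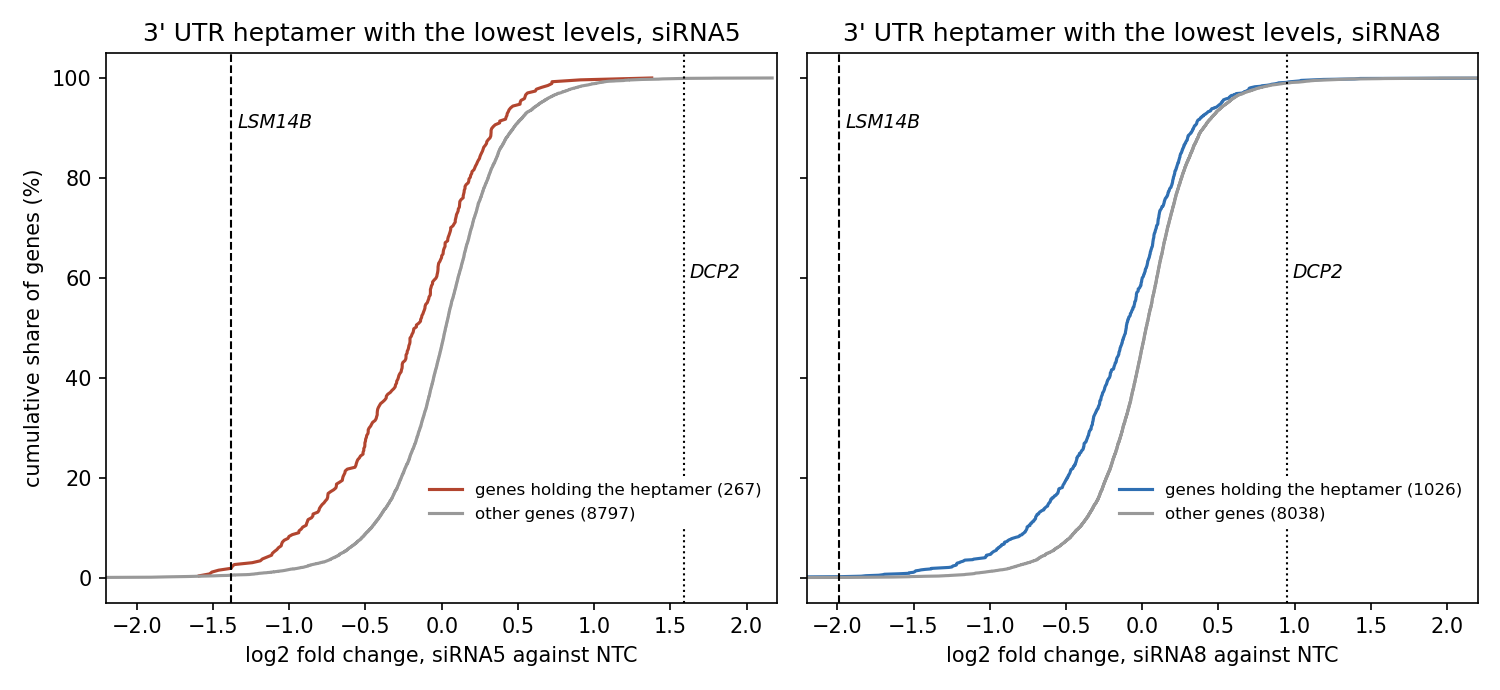
Cumulative share of genes (%) against log2 fold change, for genes whose 3′ UTR holds the leading heptamer of siRNA5 (left, 267 genes) or siRNA8 (right, 1026 genes) and for all other searched genes in grey. The dashed line marks LSM14B, far to the left in both panels, and the dotted line marks DCP2, far to the right in both, and the holders' curve lies left of the grey curve over most of its course.

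Counted together, 7 of the 10 genes were called with siRNA5, where 46.4% of all genes were called, and 4 of 10 with siRNA8, where 41.5% were called. With siRNA5, 4 were higher (DCP2, XRN1, PATL1 and LSM14A) and 3 lower (LSM14B, DCP1A and DDX6), while 24.4% of all genes were higher and 22.0% lower. With siRNA8, 3 were higher (DCP2, XRN1 and PATL1) and 1 lower (LSM14B), while 21.0% of all genes were higher and 20.5% lower. These 4 genes were called in 1 direction in both comparisons, as were 18.6% of all genes. Both comparisons share the NTC libraries, so the columns are not independent, and since the genes were chosen with these values known nothing is read from the counts. The median log2 change of the 10 genes was 0.12 with each siRNA, beside 0.01 over all genes.

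**Figure D4:**
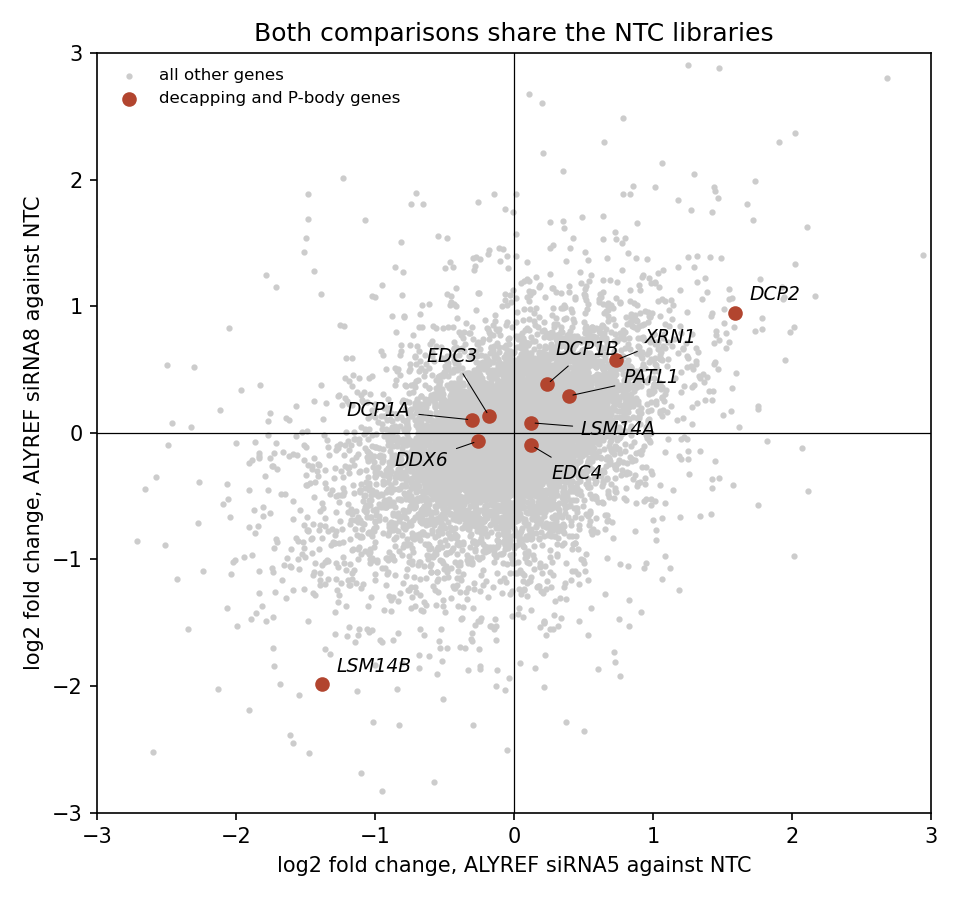
Log2 fold change with siRNA5 (horizontal) and siRNA8 (vertical) against the same NTC libraries, with the 10 genes in red and all other genes in grey, and 10 genes beyond the axis limits of 3 left out. DCP2 sits at the upper right and LSM14B at the lower left. XRN1 lies at 0.74 and 0.58, and the other 7 genes lie within 0.5 of zero on both axes.

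The siRNAs were also set against each other, by the difference of the log2 fold changes with siRNA5 minus siRNA8. Its standard error leaves out the covariance from the shared control and is an upper bound. At an adjusted p under 0.05 over all genes, 5 of the 10 differed, where 32.0% of all genes did. DCP2 was higher with siRNA5 than with siRNA8 by 0.64 (95% interval 0.41 to 0.88), and LSM14B by 0.61 (0.36 to 0.85), its fall being deeper with siRNA8. DCP1A was lower with siRNA5 than with siRNA8 by a difference of -0.41 (-0.67 to -0.14), and EDC3 by a difference of -0.31 (-0.54 to -0.08). EDC4 was higher with siRNA5 by 0.22 (0.05 to 0.39). The differences of XRN1, 0.16 (-0.11 to 0.43), and PATL1, 0.10 (-0.08 to 0.29), were not called, and their intervals also allow a difference of about the size seen for EDC4. Those of LSM14A, DCP1B and DDX6 were not called either, and the DDX6 difference of -0.19 (-0.38 to -0.004) passed when the control covariance was taken out.

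The genes nearest to DCP2 and LSM14B in the pair of log2 changes were sought among 5538 genes with a mean of at least 500, by Euclidean distance over the 2 comparisons. CSGALNACT2, an enzyme of chondroitin sulfate synthesis, was nearest to DCP2, at a distance of 0.082, with log2 changes of 1.51 ± 0.091 and 0.98 ± 0.093 by the authors' deposited tables. ADAMTS3, a procollagen protease, followed at 0.287 and PLAU, the urokinase plasminogen activator, at 0.327. LSM14B had no neighbour as close: DOCK2, a Rac activator, was nearest at 0.723, with log2 changes of -1.45 ± 0.12 and -1.27 ± 0.12 by the authors' deposited tables. The histone genes H2AFX and H1FX followed at 0.737 and 0.771, and all 3 of these fell less than LSM14B with siRNA8.

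Genes of other steps of mRNA turnover, of cap synthesis and of RNA granules were counted by list. Each count is to be read against the share of all genes called. That share was 24.4% higher and 22.0% lower with siRNA5, and 21.0% higher and 20.5% lower with siRNA8. Of 6 measured genes of the LSM ring, which works with PATL1, 1 was higher and 0 lower with siRNA5, and 1 was higher and 1 lower with siRNA8, with medians of -0.005 and -0.04. LSM1 rose by 0.45 ± 0.11 with siRNA5, while LSM6 rose by 0.60 ± 0.11 and LSM4 fell by 0.20 ± 0.073 with siRNA8 by the authors' deposited tables. With the other siRNA they were not called, at log2 changes of -0.24 for LSM1, -0.15 for LSM6 and -0.04 for LSM4. Of 20 deadenylation genes, 4 were higher and 6 lower with siRNA5, and 6 were higher and 1 lower with siRNA8, with medians of -0.04 and 0.06. CNOT6L, a catalytic subunit of the CCR4-NOT deadenylase, rose by 0.84 ± 0.11 with siRNA5 and 0.66 ± 0.11 with siRNA8 by the authors' deposited tables. CNOT1, the scaffold of that complex, fell by 0.67 ± 0.052 with siRNA5 and by 0.31 ± 0.051 with siRNA8 by the authors' deposited tables. The catalytic subunit CNOT6 rose by 0.58 ± 0.071 and the deadenylase PAN2 fell by 0.61 ± 0.13 with siRNA5, and their log2 changes of 0.05 and -0.04 with siRNA8 were not called by the authors' deposited tables. PARN, the poly(A)-specific ribonuclease, fell by 0.41 ± 0.071 with siRNA5 and rose by 0.35 ± 0.067 with siRNA8 by the authors' deposited tables.

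The list of cap and 5′ end genes outside the DCP2 complex had 11 measured. With siRNA5, 7 of them were lower and 1 higher, where 22.0% of all genes were lower and 24.4% higher. With siRNA8, 2 were lower and 1 higher, where 20.5% of all genes were lower and 21.0% higher. The medians were -0.30 with siRNA5 and -0.10 with siRNA8, beside 0.01 over all genes in each comparison. The list mixes cap synthesis with decay. RNGTT, RNMT, CMTR1 and CMTR2, which build the cap, were all called lower with siRNA5. Of these, CMTR1 alone was called with siRNA8. FAM103A1, also a gene of cap synthesis, was not called with either siRNA. Its log2 changes were 0.36 ± 0.17 with siRNA5 and -0.12 ± 0.18 with siRNA8 by the authors' deposited tables. NUDT16, another decapping enzyme of the same Nudix fold as DCP2, fell by 0.62 ± 0.099 with siRNA5, and its log2 change of -0.20 ± 0.095 with siRNA8 was not called by the authors' deposited tables. CMTR1, which methylates the first nucleotide of the cap structure, fell by 0.52 ± 0.087 with siRNA5 and by 0.22 ± 0.084 with siRNA8 by the authors' deposited tables. DCPS, which destroys the cap fragment left by decay from the other end, fell by 0.30 ± 0.13 with siRNA5 and by 0.44 ± 0.13 with siRNA8 by the authors' deposited tables. XRN2, the nuclear relative of XRN1, fell by 0.15 ± 0.061 with siRNA5 and rose by 0.20 ± 0.059 with siRNA8 by the authors' deposited tables. NUDT12, which removes NAD caps, rose by 0.46 ± 0.18 with siRNA5 by the authors' deposited table. The log2 change of NUDT12 with siRNA8, 0.08, was not called.

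The list of translational repressors and proteins of P-bodies or stress granules had 32 measured. With siRNA5, 14 of them were higher and 3 lower, where 24.4% of all genes were higher and 22.0% lower. With siRNA8, 15 were higher and 5 lower, where 21.0% of all genes were higher and 20.5% lower. The medians were 0.17 and 0.12, beside 0.01 over all genes in each comparison. The stress granule proteins in the list are G3BP1, G3BP2, CAPRIN1, UBAP2L, ATXN2 and ATXN2L. Among them, G3BP2, CAPRIN1 and ATXN2L were called higher with siRNA5, and UBAP2L and ATXN2L with siRNA8. AGO2, the slicing Argonaute protein, rose by 0.83 ± 0.088 with siRNA5 and 0.50 ± 0.089 with siRNA8, while its relative AGO1 fell by 0.65 ± 0.11 and by 0.62 ± 0.10 by the authors' deposited tables. CPEB2, a regulator of translation through the 3′ UTR, rose by 0.98 ± 0.13 with siRNA5 and stood at -0.07 ± 0.14 with siRNA8 (log2), while CPEB1 fell by 0.53 ± 0.20 and by 0.54 ± 0.20 by the authors' deposited tables. The RNA-binding protein IGF2BP3 rose by 0.39 ± 0.080 and 0.65 ± 0.079, and IGF2BP2 fell by 0.64 ± 0.068 with siRNA5 and stood at -0.01 ± 0.064 with siRNA8 (log2) by the authors' deposited tables.

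Proteins that bind AU-rich elements, which mark unstable messenger RNAs for decay, were also measured. The list also holds RC3H1, RC3H2 and ZC3H12A, which bind stem-loop decay elements, and RC3H1 and RC3H2 were called higher with siRNA5. Of 11, 4 were higher and 1 lower with siRNA5, and 3 were higher and 1 lower with siRNA8, with medians of 0.08 and 0.09, where 24.4% and 22.0% of all genes were higher and lower with siRNA5, and 21.0% and 20.5% with siRNA8. ZFP36L2 rose by 0.84 ± 0.11 and RC3H2, the Roquin-2 gene, by 0.60 ± 0.078 with siRNA5 by the authors' deposited table. Their log2 changes with siRNA8, 0.06 and 0.07, were not called. ZFP36L1 fell by 0.29 ± 0.055 with siRNA5 and rose by 0.31 ± 0.054 with siRNA8 by the authors' deposited tables. ZFP36, which encodes tristetraprolin, rose by 0.60 ± 0.22 and TIA1 fell by 0.27 ± 0.085 with siRNA8 by the authors' deposited table. Their log2 changes with siRNA5, 0.48 and -0.12, were not called.

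Among 29 immediate early and other short-lived messenger RNAs, 9 were higher and 5 lower with siRNA5, and 9 were higher and 4 lower with siRNA8, with medians of 0.08 and 0.14. Over all genes, 24.4% were higher and 22.0% lower with siRNA5, and 21.0% were higher and 20.5% lower with siRNA8. SGK1, a kinase gene, rose by 0.76 ± 0.090 and 0.53 ± 0.091, and the chemokine gene CXCL8 rose by 0.85 ± 0.14 with siRNA5 and stood at -0.21 ± 0.15 with siRNA8 (log2) by the authors' deposited tables. IER5 and VEGFA fell by 0.55 ± 0.090 and by 0.23 ± 0.052 with siRNA5 by the authors' deposited table. Their log2 changes with siRNA8, -0.12 and -0.08, were not called. HES1, a transcriptional repressor, rose by 0.62 ± 0.15 with siRNA5 and by 1.10 ± 0.15 with siRNA8 by the authors' deposited tables. PLK2 fell by 0.20 ± 0.040 with siRNA5 and by 0.22 ± 0.039 with siRNA8 by the authors' deposited tables. With siRNA8, GADD45A rose by 0.68 ± 0.071 and GADD45B fell by 0.28 ± 0.077 by the authors' deposited table. The log2 changes of GADD45A and GADD45B with siRNA5, 0.02 and -0.01, were not called. Neither EXOSC4 nor IRF7, mRNAs reported to be decapped by DCP2, was called with either siRNA: EXOSC4 had log2 changes of 0.06 ± 0.10 and 0.11 ± 0.10 by the authors' deposited tables. IRF7 has a mean of 15.7 normalized counts, and its log2 changes of -0.06 ± 0.52 and -0.66 ± 0.55 by the authors' deposited tables leave wide intervals.

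**Figure D5:**
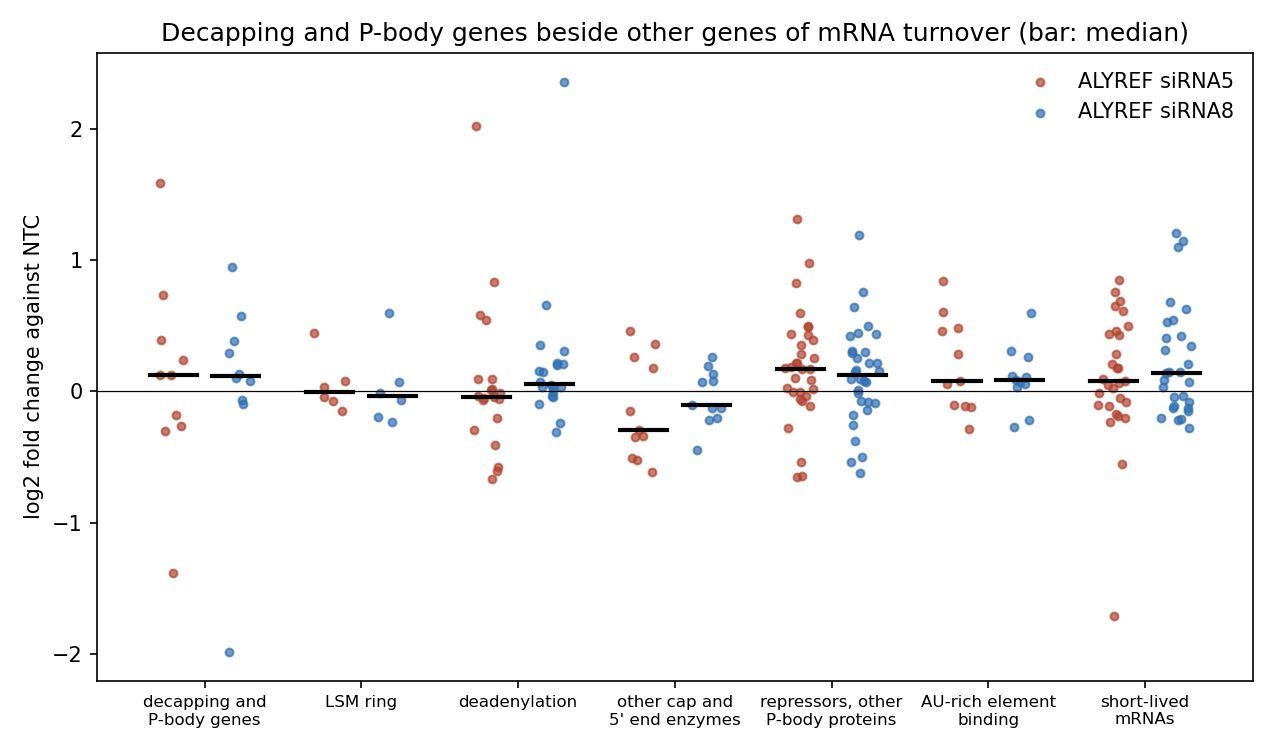
Log2 fold change against NTC of each measured gene, with siRNA5 in red to the left and siRNA8 in blue to the right. Columns are the 10 decapping and P-body genes and 6 lists of related genes, with black bars at the medians. DCP2 and LSM14B are the extremes of the first column. The lowest median, -0.30, is that of the other cap and 5′ end genes with siRNA5, a list that includes cap synthesis.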

How the data were processed

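Per the labels, 786-O cells received siRNA, were split into fresh medium at 24 h and harvested at 48 h, and directional libraries of poly(A) RNA were read as paired ends of 42 nt. The submitters' processing notes name STAR, Picard, HTSeq, DESeq2 and the build hg19, without versions or settings. Per the file headers, the deposited signal is the authors' mean normalized count over all libraries, the deposited fold changes and standard errors are log2 values, the Wald score is their quotient, and p-values were adjusted by the authors with DESeq2 (recomputed over all 11681 rows to within rounding). Direction was read from ALYREF. Reads without a feature made up 6.23% and ambiguous reads 1.62% of the summed means.

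Computed here, with NumPy 2.4.6, pandas 2.3.3 and SciPy 1.17.1, were the rebuilt levels, the difference between siRNAs (normal two-sided p, Benjamini-Hochberg over 11679 genes) and the heptamer ranking, which adjusts for the length and GC content of the 3′ UTR. The difference and the ranking were run on simulated data with planted changes larger than the differences and heptamer shifts given here. How they do at smaller changes was not tried. Transcripts were 1 per gene from GENCODE 29, found for 10918 genes. Named genes outside the 10 were the largest called changes, up to 2 per direction, list and siRNA, with a mean of at least 100, the 3 nearest neighbours of DCP2 and LSM14B, and ALYREF. EXOSC4 and IRF7, the whole of a list of reported DCP2 substrates, fall outside that rule and were named after their values were seen. Genes named to say what a list holds, some of them with their calls or values, also fall outside it. They too were named with their values known. Members and lists were chosen with earlier results of these data known. Alternatives were a threshold of 0.01, a mean of at least 50, median centring, a 1.5-fold minimum and the control covariance. The heptamers and rebuilt levels were added after the tables were seen.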

Additional observations from a re-analysis of the deposited data

Results flagged for a closer look

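For 5 of the 10 genes the effects of the siRNAs differed by the test of the difference, siRNA5 minus siRNA8 on the log2 scale: DCP2 by 0.64, LSM14B by 0.61, EDC4 by 0.22, EDC3 by -0.31 and DCP1A by -0.41. The genes were chosen with both fold changes known, so these are descriptions. DCP2 was above NTC and LSM14B below NTC with both siRNAs, and the other 3 had opposite signs.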

How the results depend on the processing

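No paired analysis was possible because the deposited tables hold no values per library, and for the same reason no replicate could be left out and no other normalization or filter on counts could be run. Asking for at least 1.5-fold left 3 called genes with siRNA5 (DCP2, XRN1 and LSM14B) and 2 with siRNA8 (DCP2 and LSM14B), in place of 7 and 4. A threshold of 0.01, and median centring, each left 6 with siRNA5, LSM14A being lost, and 4 with siRNA8. Adjusting without the genes whose mean is under 50 gave 7 and 4. The count of genes that differed between siRNAs was 5, and 6 with the control covariance taken out, which adds DDX6. Median centring, the only other scaling run, moved each log2 change by about 0.01 with each siRNA. That is too little to change the sign of any called change of the 10 genes, so nothing is read from their unchanged signs. DCP1B, with a mean of 116 and standard errors of 0.21 and 0.20, is the gene whose depth limits it most among the 10.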

Other observations

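The heptamer whose holders stood highest with siRNA5 was TATTTAT, an AU-rich word, held by 3168 of the 9064 searched genes with a median log2 change of 0.12, against -0.02 for the others. It was picked for that value. Among the 10 genes, the 3′ UTRs of DCP2 and XRN1 hold it 3 times each and those of DCP1A and PATL1 once each, while the other 6 genes do not hold it. The 3 genes that rose with both siRNAs are among these 4, and DCP1A, the fourth, fell with siRNA5. The word was picked with the 10 genes in the search and is held by 35.0% of the searched genes. Nothing is therefore read from this overlap.

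The 3′ UTR of DCP2, at 7486 nt, is as long as or longer than 97.4% of the annotated 3′ UTRs of the genes in the tables, and that of XRN1 has 4904 nt. The 1278 genes with a 3′ UTR of at least 4000 nt had a median log2 change of 0.10 with siRNA5 and 0.03 with siRNA8, against -0.02 and -0.0002 for the 4956 genes under 1000 nt. DCP1A and DDX6, with 4152 and 4339 nt, are in the long group and fell with siRNA5. Whether 3′ UTR length or this word has a part in the rise of DCP2 was not tested.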
